A study of Homo sapiens with 6 samples.

Results

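The nuclear genes of the respiratory chain were examined in RNA-seq libraries of HepG2 cells that carried wild-type or mutant VEZF1. The genes were chosen by symbol alone. They are all genes whose symbol starts with NDUFA, NDUFB, NDUFC, NDUFS or NDUFV, with UQCR, with COX followed by a digit from 4 to 8, or with ATP5, and the genes SDHA, SDHB, SDHC and SDHD. Symbols that hold a hyphen or end as pseudogene symbols do were left out. Of 59608 genes in the count table, 96 met the rule, which left out most of the 258 genes that carry such a name. By name 47 belong to complex I, 4 to complex II, 9 to complex III, 17 to complex IV and 19 to complex V.

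HepG2 cells are an established line from a human liver tumour. VEZF1 is a zinc finger transcription factor, and O-GlcNAcylation is the attachment of a single sugar, N-acetylglucosamine, to serine or threonine residues of a protein. In both groups an sgRNA delivered by lentivirus had been directed against the cells' own VEZF1, and the groups differed in the form put back. VEZF1-WT is the wild-type protein, and VEZF1-2A has alanine in place of a pair of serines that can bear the sugar. The comparison asks which transcripts differ when VEZF1 cannot carry the sugar at these residues. Each form had 3 libraries, with no library of untouched HepG2 cells and none of silenced cells without re-expression. The sources do not say whether the libraries of a group came from separate cultures, so p-values measure the spread between these libraries alone, which may be technical, nor whether the silenced cells were 1 clone. Total counts were 47414775, 35272710 and 57199396 in VEZF1-WT libraries 1 to 3 and 28756765, 39565464 and 33966492 in VEZF1-2A libraries 1 to 3.

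The respiratory chain sits in the inner membrane of the mitochondrion. Complex I takes electrons from NADH and complex II from succinate, ubiquinone passes them to complex III, and cytochrome c passes them on to complex IV, where oxygen is reduced. Complexes I, III and IV pump protons across the membrane, and complex V, the ATP synthase, uses the return of the protons to make ATP. Most subunits are encoded in the nucleus and imported, while a small set is encoded by mitochondrial DNA, and liver cells are known for a high mitochondrial content.

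The libraries carried the markers of hepatocytes and of HepG2. ALB ranged from 2810 to 3670 CPM (counts scaled to a common library total, with TMM factors), AFP from 1760 to 3640 CPM and HNF4A from 128 to 157 CPM over the 6 libraries. Of the 5 fibroblast markers LUM was at 0 in all libraries and the sum of the list was 0.842 to 1.93 CPM. The sum of 4 endothelial markers was 2.14 to 4.35 CPM, led by PECAM1. The 5 leukocyte markers summed to 657 to 776 CPM, nearly all from LYZ (493 to 663 CPM) and CD68 (112 to 185 CPM), while PTPRC, the marker that defines leukocytes, was between 0 and 0.121 CPM and CD3E between 0 and 0.0603 CPM. VEZF1 itself was 59.3, 45.6 and 40.0 CPM in the VEZF1-WT libraries and 46.2, 48.6 and 38.9 CPM in the VEZF1-2A libraries, which overlap. Reads of the re-expressed gene and of any remaining endogenous transcript cannot be told apart in this row, so it does not check the silencing.

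Together the 96 genes took a nearly constant part of each library. Their share of all counts was 0.665%, 0.674% and 0.683% with VEZF1-WT, against 0.674%, 0.67% and 0.666% with VEZF1-2A, and the groups overlap. Of the 96 genes, 89 had enough counts to be tested. COX6A2, COX7B2 and COX8C were at 0 in every library, and COX4I2, COX6B2, COX7A1 and ATP5MGL had from 2 to 18 counts in all 6 libraries together.

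No respiratory chain gene differed between VEZF1-WT and VEZF1-2A after adjustment over all genes. In edgeR's quasi-likelihood test 0 of the 89 passed an adjusted p of 0.05, and neither did any other gene, since 0 of 19111 genes tested (0.0%) passed. The authors did report differentially expressed genes between these groups, by a test that the sources used here do not name. Without a filter on low counts 16 of 38745 genes passed in edgeR's test, and in the DESeq2 test 3 of 38745 passed, none of them a chain gene. At an unadjusted p under 0.05 there was 1 chain gene, NDUFAB1, against 408 of all genes tested (2.13%, of which 0.832% higher and 1.3% lower in VEZF1-WT). Among genes with a mean of at least 10 CPM it was 1 of 79 chain genes, beside 110 of all 8843. Of the 89, 48 had a log2 fold change (VEZF1-WT over VEZF1-2A) above 0 and 41 below, which is 53.9% above, beside 50.1% of all genes tested. The median log2 fold change was 0.0025 for the chain genes and 0.0003 for all genes tested. Among genes with a mean of at least 10 CPM, 53.2% of chain genes and 54.4% of all genes were above 0. The medians there were 0.0021 and 0.0071. In bulk RNA, fewer cells with a transcript and less of it per cell cannot be told apart.

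The chain genes varied little in any direction. Only 12 of the 89 (13.5%) had a log2 fold change beyond 0.1 either way, beside 40.1% of all genes tested and 13.9% of the 8843 genes with a mean of at least 10 CPM. Of the chain genes with at least 10 CPM it was 8 of 79 (10.1%). The 95% confidence interval of the log2 fold change lay wholly between -0.3 and 0.3, a fold of 0.812 to 1.23, for 78 of the 89 genes. Among genes with at least 10 CPM it did so for 74 of 79 chain genes and for 7193 of all 8843, with a median half-width of 0.15 for the former and 0.17 for the latter. Over the 6 libraries the median coefficient of variation was 5.02% for the chain genes, 6.06% for genes with at least 10 CPM and 10.6% for all genes tested. COX4I1 was the steadiest at 1.51%, and NDUFA4L2, with 57 counts in all 6 libraries, varied most at 59.0%.

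**Figure D1:**
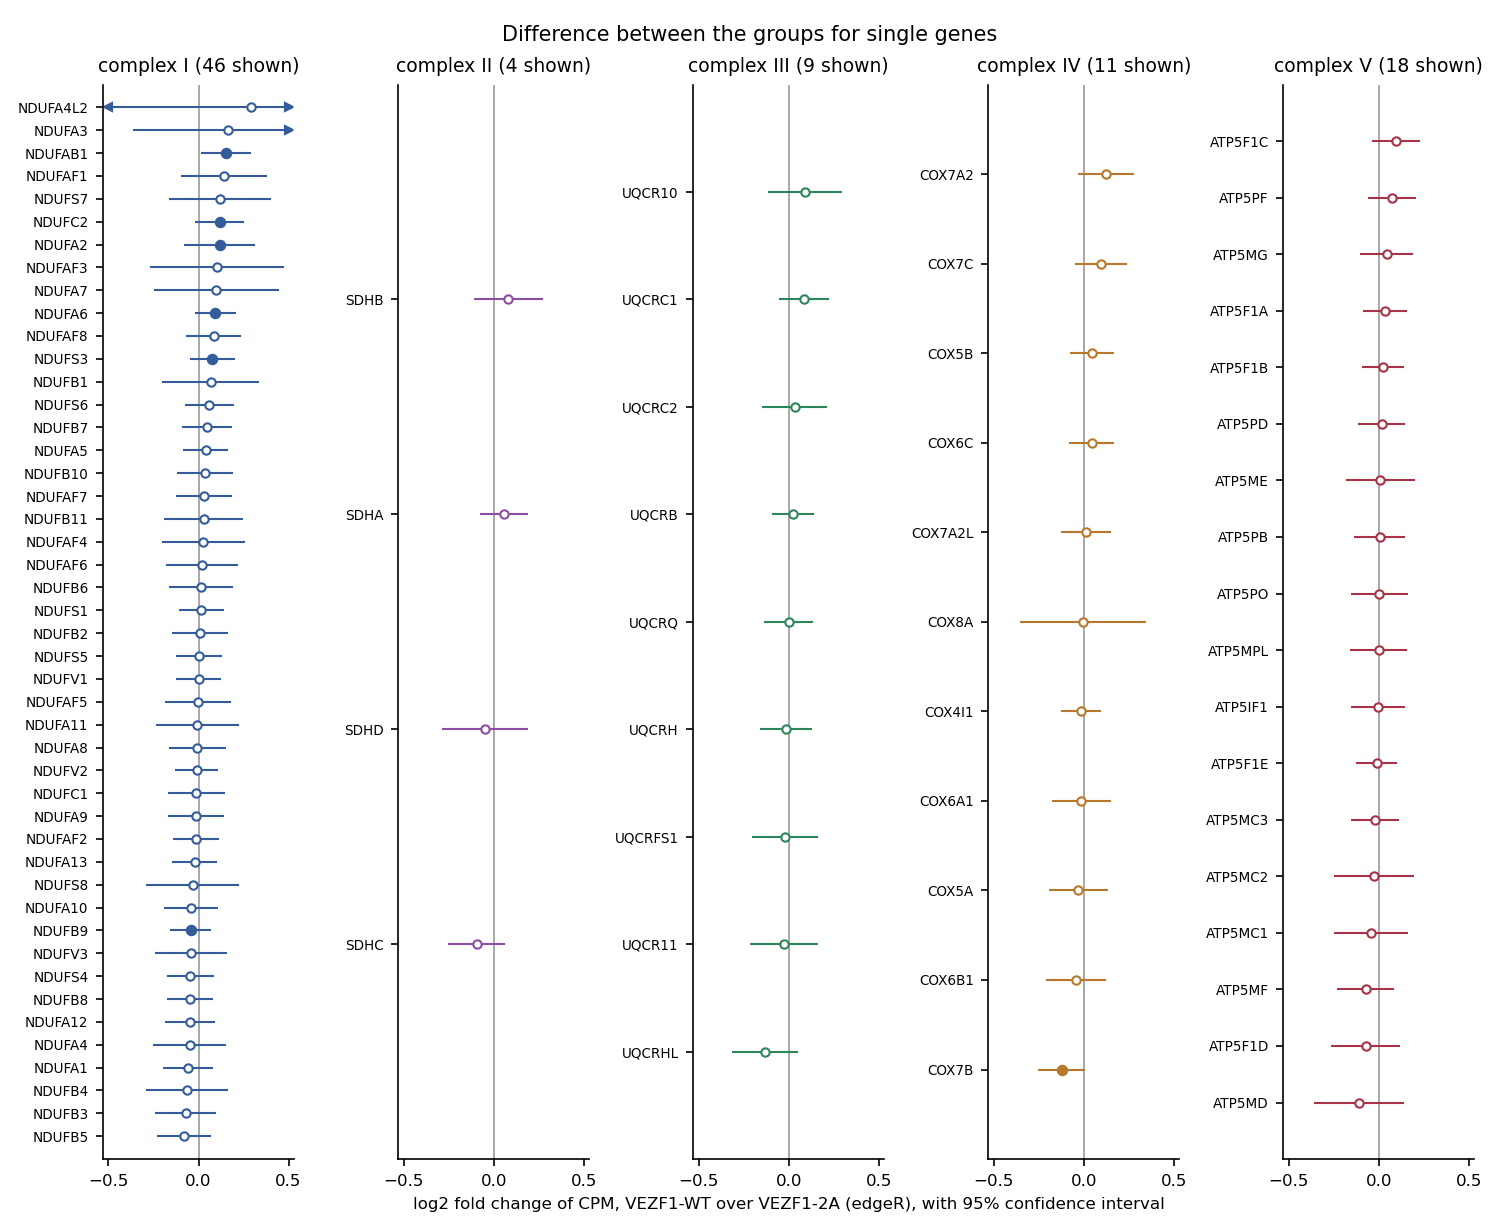
Log2 fold change of CPM (VEZF1-WT over VEZF1-2A) with its 95% confidence interval for 88 of the 89 genes tested, in 1 panel per complex, ordered by fold change. Filled points mark the 7 genes whose 3 VEZF1-WT libraries do not overlap the 3 VEZF1-2A libraries, and arrowheads mark intervals that run past the axis (NDUFA4L2 and NDUFA3). Only the interval of NDUFAB1 does not reach 0.

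The groups were fully apart in 7 of the 89 genes (7.87%), with each library of one above each of the other, beside 1406 of all genes tested (7.36%). Among genes with a mean of at least 10 CPM it was 7 of 79 chain genes (8.86%), beside 520 of all 8843 (5.88%). Higher in VEZF1-WT were 5 genes of complex I, namely NDUFA2, NDUFA6, NDUFAB1, NDUFC2 and NDUFS3 (background 3.5%). Lower were NDUFB9 of complex I and COX7B of complex IV (background 3.86%). For each of these the exact two-sided permutation test gave p = 0.1, the smallest that 3 libraries against 3 allow. Groups that are fully apart always give this p, so it adds nothing to the separation itself.

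Windows around the start sites of the chain genes were searched for short words bound by known regulators of nuclear mitochondrial genes. The words were chosen as textbook motifs of NRF1, of the ETS family that holds GABPA, of YY1, of the factors of the CAAT box and of the estrogen-related receptors, with a G-rich word of the kind bound by MAZ and VEZF1. Of the 96 genes 79 had at least 1 window in the RefSeq promoter table (GRCh38.p14), 98 windows in all, each of 250 bases before and 50 after the start. Among those without one were NDUFAF6, NDUFB5, NDUFB9, NDUFC2, NDUFS5, SDHC, UQCRB, UQCRHL, COX4I2, COX6C, COX7A1, ATP5F1B, ATP5F1D, ATP5MC3, ATP5MF and ATP5MGL. For each complex the gene with the most different words, ties going to the higher level, is shown, from 100 bases before to 30 after the start, so that a reader can see the words in place. Capitals mark the words found on either strand.
NDUFAF8 (complex I, chr17:81239211-81239340, plus strand): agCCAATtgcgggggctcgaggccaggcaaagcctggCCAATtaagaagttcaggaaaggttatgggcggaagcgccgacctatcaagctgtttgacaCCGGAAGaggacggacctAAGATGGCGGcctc
SDHD (complex II, chr11:112086773-112086902, plus strand): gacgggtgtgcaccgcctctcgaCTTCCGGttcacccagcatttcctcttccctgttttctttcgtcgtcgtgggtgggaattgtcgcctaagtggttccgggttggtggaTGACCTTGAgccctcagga
UQCRH (complex III, chr1:46303598-46303727, plus strand): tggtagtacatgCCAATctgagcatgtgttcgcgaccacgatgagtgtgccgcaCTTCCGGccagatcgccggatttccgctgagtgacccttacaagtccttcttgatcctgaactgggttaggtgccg
COX6A1 (complex IV, chr12:120438013-120438142, plus strand): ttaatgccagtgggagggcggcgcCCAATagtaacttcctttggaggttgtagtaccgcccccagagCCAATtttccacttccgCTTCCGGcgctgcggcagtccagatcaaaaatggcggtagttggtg
ATP5PF (complex V, chr21:25735025-25735154, minus strand): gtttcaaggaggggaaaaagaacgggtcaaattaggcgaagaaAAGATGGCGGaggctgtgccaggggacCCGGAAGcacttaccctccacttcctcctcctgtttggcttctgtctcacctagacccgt
The stretches of NDUFAF8, an assembly factor of complex I, and of ATP5PF, a stalk subunit of complex V, each hold the ETS word CCGGAAG and the YY1 word, AAGATG followed by GCGG. In SDHD, a membrane anchor of complex II, the capitals are the ETS word on the other strand (CTTCCGG) and the estrogen-related receptor word on the other strand (TGACCTTGA), and its NRF1 word GCGCATGCGC starts 110 bases before the start, outside the stretch shown. The stretches of UQCRH and COX6A1 hold CCAAT and CTTCCGG.

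Both strands were searched, and words may overlap. The NRF1 word, GCGCA and GCGC on either side of 1 free base, was in 18.4% of the 98 chain windows, in 9.58% of the 15937 windows of genes tested here and in 5.78% of all 35116 windows. The ETS word CCGGAAG was in 25.5% of the chain windows, in 16.4% of those of genes tested and in 10.3% of all. The YY1 word was in 11.2%, 2.32% and 1.2% in the same order. CCAAT was about as frequent in the chain windows (35.7%) as in all (34.6%). The estrogen-related receptor word TCAAGGTCA was in 1 window (1.02%), beside 0.353% of all. The G-rich word GGGAGGGG was in 4.08% of the chain windows, 18.2% of those of genes tested and 14.6% of all. These shares describe the reference sequence, without a test, and a match is not a bound site.

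Differences between the groups were small with and without these words. The median log2 fold change was -0.0038 for the 17 tested genes with the NRF1 word, 0.0087 for the 23 with the ETS word, 0.08 for the 9 with the YY1 word and 0.0093 for the 34 with none of the 3. The 9 genes with the YY1 word are ATP5PF, NDUFA6, NDUFA9, NDUFAF8, NDUFB8, NDUFS4, NDUFS7, SDHB and UQCRC1, and none of them had an unadjusted p under 0.05.

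Levels of different genes were compared per unit of length, as TPM (each count divided by the exon length in the table and scaled to the same total in every library). Over the 96 genes the median of the mean TPM was 34.5. NDUFS5, an accessory subunit of complex I, stood far above the rest at 3310 ± 75.3 TPM (SD, n = 6 libraries), followed by UQCRH at 603 ± 16.9 TPM and NDUFAF2, an assembly factor of complex I, at 488 TPM. NDUFS5 also had the highest CPM of all, 719. COX4I1, NDUFA6 and COX5B lay between 227 and 246 TPM, and ATP5F1B and ATP5IF1 were both at 199 TPM. Of the genes tested, the lowest were NDUFA4L2 (0.22 TPM), NDUFA3 (1.8 TPM), NDUFS7 (2.59 TPM) and NDUFAF3 (3.94 TPM). Over the 89 genes Spearman's rho of TPM with exon length was -0.477 and with GC content -0.053, as a description in which the length enters the TPM itself. With the median length of coding transcripts in place of the table's length, NDUFS5 stayed first (1620 TPM), but much of the order below it changed. COX4I1 came second (807 TPM) and UQCRB went from rank 39 (53.6 TPM) to rank 4 (511 TPM), while NDUFAF2 fell to rank 6 (378 TPM). At the low end NDUFA3 came to 5.72 TPM and NDUFS7, a core iron-sulfur subunit, to 9.06 TPM.

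Summed per complex, levels overlapped between the groups except for complex IV. Complex I summed to 6358, 6527 and 6463 TPM with VEZF1-WT, against 6507, 6270 and 6331 TPM with VEZF1-2A. NDUFS5 alone made 3310 TPM of this sum. Without the assembly factors the sum was 5652 to 5862 TPM over the 6 libraries. Complex III summed to 1053 to 1108 TPM and complex V to 1186 to 1258 TPM over the 6 libraries, while complex II, with its 4 genes, summed to 93.9 to 102 TPM. Complex IV was 1178, 1182 and 1195 TPM with VEZF1-WT, against 1169, 1156 and 1135 TPM with VEZF1-2A. These 2 sets of values are apart by a small gap, and on the CPM scale, without lengths, they overlap (1153 to 1204 CPM against 1139 to 1176 CPM).

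Complex I holds the only chain gene with an unadjusted p under 0.05. Of its 47 genes, 27 had a log2 fold change above 0 and 20 below, with a median of 0.01. NDUFAB1 (chr16:23581014-23596316 in the table's GRCh38 positions) encodes the mitochondrial acyl carrier protein, which is also an accessory subunit of complex I. It was 42.4, 44.6 and 47.3 CPM with VEZF1-WT, against 39.6, 40.8 and 40.5 CPM with VEZF1-2A. The groups do not overlap, though the lowest VEZF1-WT library lies only a little above the highest VEZF1-2A library. The log2 fold change was 0.15 (SE 0.063, 95% confidence interval 0.01 to 0.29, unadjusted p = 0.0362, adjusted p = 0.9996). It was between 0.11 and 0.19 in all alternatives, but its p was above 0.05 in the DESeq2 test (0.0658) and when any library other than VEZF1-WT 1 was left out (0.0532 to 0.142). None of the 6 words was found in its window.

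NDUFC2, an accessory subunit of the membrane arm, was 50.4, 49.6 and 49.95 CPM with VEZF1-WT, against 48.1, 46.9 and 43.2 CPM with VEZF1-2A. Its log2 fold change was 0.12 (SE 0.062, unadjusted p = 0.0863), and it shares exon positions with the read-through gene NDUFC2-KCTD14, whose row holds 11740 counts beside its 11681, so that the same reads may stand in both. NDUFA6, an accessory subunit that binds the acyl carrier protein, was 132, 136 and 136 CPM with VEZF1-WT, against 125, 126 and 128 CPM with VEZF1-2A (log2 fold change 0.09, unadjusted p = 0.0988). Both genes were thus higher in all 3 VEZF1-WT libraries by amounts that did not pass the test. NDUFA2 was 10.7 to 11.3 CPM against 9.61 to 10.5 CPM, with an unadjusted p of 0.213, and shares exon positions with IK on the opposite strand, whose row holds 138445 counts beside its 2570. NDUFB9 was slightly lower in VEZF1-WT, at 123 to 125 CPM against 126 to 130 CPM (log2 fold change -0.04, unadjusted p = 0.406), and shares exon positions with TATDN1 and MTSS1 on the opposite strand.

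The 7 core subunits encoded in the nucleus carry the flavin, the iron-sulfur clusters and the quinone site of complex I. NDUFS3 was 46.8, 45.1 and 46.8 CPM with VEZF1-WT, against 43.9, 44.2 and 43.6 CPM with VEZF1-2A, and was the only core subunit whose groups do not overlap (log2 fold change 0.08, unadjusted p = 0.21). Its row shares exon positions with those of CELF1 and PTPMT1. NDUFV1, which binds NADH and the flavin, was 49.9, 51.6 and 51.6 CPM against 51.3, 51.7 and 49.95 CPM. NDUFS1, the largest of the iron-sulfur subunits, was 173, 184 and 172 CPM against 180, 176 and 169 CPM. For both, the groups overlap and the 95% interval of the log2 fold change was within 0.14 of 0. NDUFV2 had a log2 fold change of -0.01. NDUFS7 and NDUFS8, with under 10 CPM, had wider intervals, -0.17 to 0.40 and -0.29 to 0.23.

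NDUFS5 was 698, 708 and 754 CPM with VEZF1-WT, against 717, 688 and 752 CPM with VEZF1-2A. The highest library of either group was number 3, and the log2 fold change was 0.0025 (95% confidence interval -0.13 to 0.13). NDUFS6, an accessory subunit with a zinc site, was 106, 103 and 110 CPM against 97.1, 101 and 108 CPM, which overlap. The 8 assembly factors named NDUFAF, which help build complex I but are not part of it, had log2 fold changes from -0.01 (NDUFAF2) to 0.14 (NDUFAF1), with unadjusted p-values of 0.22 or above. NDUFA4 carries a complex I name but is now placed in complex IV. It was 8.97 TPM, its relative NDUFA4L2 0.22 TPM, and neither passed the test.

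Complex II, or succinate dehydrogenase, has 4 subunits, all nuclear. SDHA, the flavoprotein that oxidizes succinate (chr5:218241-257082), was 185, 176 and 190 CPM with VEZF1-WT, against 172, 171 and 186 CPM with VEZF1-2A. The groups overlap, and the log2 fold change was 0.06 (SE 0.059, unadjusted p = 0.358). Rows of SDHA pseudogenes held another 8841 counts, or 20.2% of its 43806 counts, and how reads were shared among these copies is uncertain. SDHA also shares exon positions with AC021087.5 on the same strand, whose row holds 52216 counts. SDHB, the iron-sulfur subunit, was 20.5, 20.7 and 20.9 CPM against 21.4, 17.4 and 20.0 CPM. SDHC, a membrane anchor, was 24.0, 23.2 and 24.3 CPM against 24.2, 24.8 and 27.3 CPM (log2 fold change -0.09, unadjusted p = 0.214). SDHD, the other anchor, was 9.4, 10.1 and 10.5 CPM against 11.4, 9.09 and 10.5 CPM. In all 4 genes the groups overlap.

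In complex III, 5 of 9 genes were above 0 and 4 below, with a median log2 fold change of 0.0003. CYC1, the cytochrome c1 subunit, is not among these 9, since its symbol did not meet the rule. UQCRH, the hinge protein that binds cytochrome c1, was 321, 298 and 339 CPM with VEZF1-WT, against 311, 315 and 342 CPM with VEZF1-2A. Its relative UQCRHL was 29.8, 26.5 and 31.5 CPM against 29.5, 33.7 and 32.9 CPM. UQCRHL had the lowest log2 fold change of all 89 genes, -0.13 (SE 0.083, unadjusted p = 0.144). It was -0.07 without VEZF1-WT 2 and -0.19 without VEZF1-WT 3. Since the sequences of UQCRH and UQCRHL are close, the split of reads between them is uncertain. UQCRC1, a core protein of the matrix side, was 143, 146 and 154 CPM against 131, 138 and 148 CPM, with overlapping groups (log2 fold change 0.09, unadjusted p = 0.202). UQCRFS1, the Rieske iron-sulfur protein, was 15.0, 16.5 and 16.4 CPM against 15.4, 17.0 and 16.1 CPM. UQCR10 shares exon positions with AC004882.3 on the opposite strand, whose row holds 7228 counts beside its 7706, and no source used here gives the strand setting of the counting.

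In complex IV, 11 of the 17 genes were tested, 5 above 0 and 6 below, with a median log2 fold change of -0.01. COX7B, a small membrane subunit (chrX:77899440-77907376), was 33.9, 33.2 and 35.2 CPM with VEZF1-WT, against 37.1, 37.1 and 37.3 CPM with VEZF1-2A. All VEZF1-WT libraries lie below the VEZF1-2A libraries, which are nearly equal. The log2 fold change was -0.12 (SE 0.059, 95% confidence interval -0.25 to 0.01, unadjusted p = 0.0625). In edgeR's test with a replicate block its unadjusted p was 0.0473, where 4.32% of all genes tested were under 0.05. COX7A2, the liver form of another small subunit, was 84.7, 89.3 and 96.5 CPM against 81.2, 78.2 and 89.0 CPM, which overlap through the third VEZF1-2A library (log2 fold change 0.12, SE 0.071, unadjusted p = 0.112). Without that library its log2 fold change was 0.18 (unadjusted p = 0.0283). In that fit 4.89% of all genes tested were under 0.05. The log2 fold change of COX7A2 was 0.07 without VEZF1-WT 3 (unadjusted p = 0.354) and 0.08 without VEZF1-2A 2 (unadjusted p = 0.322). In edgeR's test with a replicate block it was 0.12 (unadjusted p = 0.0283). COX4I1, the largest of the nuclear subunits, was 470, 463 and 471 CPM against 483, 464 and 470 CPM. COX5B, which binds zinc, was 132, 125 and 133 CPM against 122, 126 and 129 CPM, and COX5A 34.5, 39.4 and 38.4 CPM against 37.5, 36.5 and 40.8 CPM.

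Several complex IV subunits exist in forms made by different genes in different tissues, and HepG2 cells used 1 form of each pair. COX4I1 was 246 TPM and its lung form COX4I2 had 2 counts, both in VEZF1-2A library 1. COX6A1 was 62.4 TPM and COX6A2, the heart and muscle form, had 0 counts, which allows up to 0.104 CPM in the smallest library, from 3 counts and for counting error alone. This limit takes each count as a separate fragment, and it is too low if fragments were counted more than once, since 65.7% to 67.5% of the counts from 11 to 100 were even. COX7A2 was 113 TPM and COX7A1, also of heart and muscle, 0.16 TPM from 8 counts, while the related COX7A2L, which takes part in supercomplexes, was 19.5 TPM. COX6B1 was 49.96 TPM and the testis form COX6B2 had 10 counts. COX7B and COX8A were 29.7 and 28.2 TPM, and COX7B2 and COX8C had 0 counts. None of these pairs shifted toward its minor form in either group, as COX4I2, COX6A2, COX6B2, COX7A1, COX7B2 and COX8C each stayed at or below 0.276% of its pair in every library.

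In complex V, 9 genes were above 0 and 9 below, with a median log2 fold change of 0.0. ATP5F1B, the catalytic beta subunit (chr12:56638175-56645984), was 172, 181 and 182 CPM with VEZF1-WT, against 177, 175 and 174 CPM with VEZF1-2A. ATP5F1A, the alpha subunit, was 147, 153 and 152 CPM against 142, 148 and 153 CPM. Both overlap, with log2 fold changes of 0.02 (SE 0.053) and 0.03 (SE 0.055). ATP5F1C, the gamma subunit of the rotor, was 58.6, 54.9 and 60.1 CPM against 54.1, 52.6 and 56.0 CPM and had the largest difference above 0 in the complex (log2 fold change 0.09, unadjusted p = 0.152). ATP5MD, a small subunit of the membrane part, had the largest below 0 (-0.11, SE 0.112, unadjusted p = 0.352), which was 0.01 without VEZF1-2A library 2. ATP5PF, whose stretch with the ETS and YY1 words is printed above, was 77.5, 79.9 and 82.8 CPM against 78.9, 77.6 and 72.2 CPM, and its row shares exon positions with that of GABPA. ATP5IF1, the inhibitor that stops ATP hydrolysis, was 175, 165 and 187 CPM against 164, 182 and 183 CPM.

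The genes ATP5MC1, ATP5MC2 and ATP5MC3 encode the same mature c subunit of the proton ring. With the table's lengths ATP5MC3 made up 55.2% of their summed TPM, ATP5MC1 26.8% and ATP5MC2 the rest, 16.7% to 19.5%. These shares depend on the lengths used. Without length, ATP5MC3 was 56.0 CPM, and ATP5MC1 and ATP5MC2 were both 10.5 CPM. With median coding transcript lengths ATP5MC3 was 81.8 TPM, ATP5MC1 25.6 TPM and ATP5MC2 15.9 TPM. With the table's lengths the share of ATP5MC3 ranged only from 54.1% to 56.3% over the 6 libraries. The 3 log2 fold changes lay between -0.04 and -0.02.

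**Figure D2:**
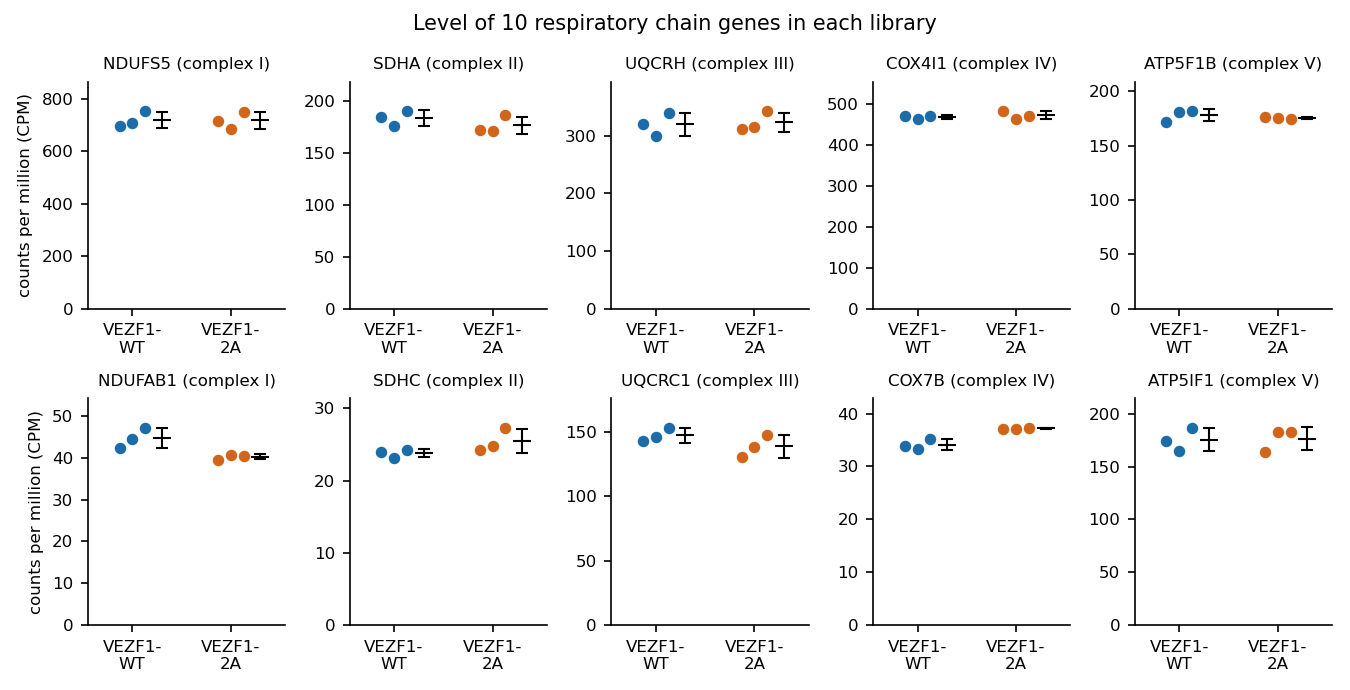
CPM of 10 genes, 2 per complex, in each library (points, in the order of library 1 to 3) with the mean and SD of each group in black, on axes that start at 0. Only in NDUFAB1 and COX7B are the groups apart, and by little beside their level.

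The chain genes differed little in level between libraries. Each gene's log2 CPM was taken minus its mean over the 6 libraries. The median over the 89 chain genes was -0.02, 0.01 and 0.04 in VEZF1-WT 1 to 3. In VEZF1-2A 1 to 3 it was -0.0046, -0.01 and 0.01. VEZF1-WT 3 was the highest library for 27 of the 89 genes (30.3%, beside 16.8% of all genes tested) and the lowest for 7, and VEZF1-WT 1 was the highest for 4 and the lowest for 16. VEZF1-2A 3 was the highest for 21 (23.6%, beside 19.7%) and also the lowest for 18 (20.2%, beside 18.8%). Of 89 genes of cytosolic ribosomal proteins tested, VEZF1-WT 3 was the highest library for 47 and VEZF1-2A 3 for 22. Cell cycle genes had their highest medians in VEZF1-2A 3 (0.17), VEZF1-WT 3 (0.11) and VEZF1-WT 1 (0.11), and AFP was 3640 CPM in VEZF1-WT 3 and 3480 CPM in VEZF1-2A 3, against 1760 to 2070 CPM in the others. The part of these library differences in the values of single chain genes was not tested.

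**Figure D3:**
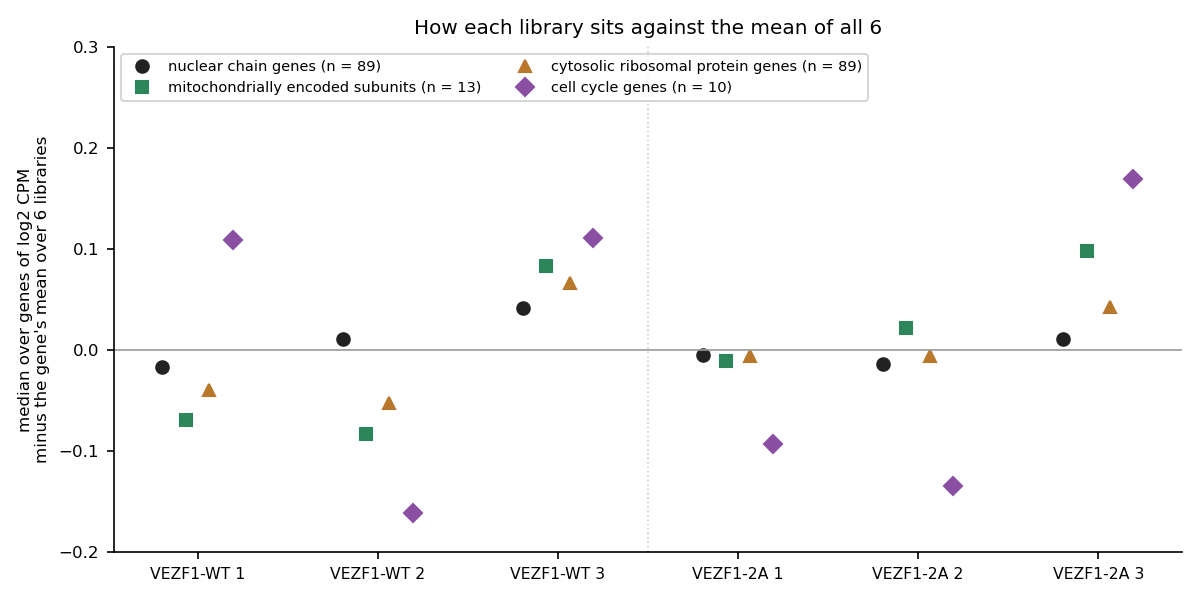
Median over genes of the log2 CPM of each library minus the gene's mean over the 6 libraries, for the nuclear chain genes, the mitochondrially encoded subunits, cytosolic ribosomal protein genes and cell cycle genes. The chain genes stay within 0.05 of 0 in every library, while cell cycle genes range from -0.16 to 0.17.

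Subunits of the same complexes that are encoded by mitochondrial DNA lay slightly below 0 without passing the test. All 13 had a log2 fold change below 0, with a median of -0.07, none passed the adjusted threshold, and 1 had an unadjusted p under 0.05, where 2.13% of all genes did. This was MT-ND6, a complex I subunit, at 4793, 4745 and 4664 CPM with VEZF1-WT, against 5114, 5234 and 5169 CPM with VEZF1-2A (log2 fold change -0.13, SE 0.049, unadjusted p = 0.0265). Since the strand setting is not given, the MT-ND6 row may also hold reads of the opposite strand. In 5 of the 13 (38.5%) the groups do not overlap, beside 7.36% of all genes tested. These transcripts come from shared precursors and are not 13 independent values. Their summed CPM was 9.97, 9.87 and 10.3 times that of the nuclear chain genes with VEZF1-WT, against 10.3, 10.6 and 10.9 times with VEZF1-2A, and these values overlap.

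Among the other nuclear genes of the pathway, none passed the adjusted threshold. Of 8 electron carriers and donors 7 were tested, and none had an unadjusted p under 0.05. The list includes CYC1 of complex III, whose groups overlap (log2 fold change -0.04). CYCS, cytochrome c, was 451, 458 and 458 CPM with VEZF1-WT, against 428, 423 and 435 CPM with VEZF1-2A, which do not overlap (log2 fold change 0.09, SE 0.050, unadjusted p = 0.105). None of the 13 coenzyme Q synthesis genes had an unadjusted p under 0.05. Of 41 assembly factors without a chain gene name, 1 did (2.44%), a share near the 2.13% of all genes tested. TMEM70, which helps assemble the ATP synthase, was 14.2, 14.5 and 15.5 CPM against 12.6, 12.2 and 12.3 CPM (log2 fold change 0.25, SE 0.081, unadjusted p = 0.0108, adjusted p = 0.9996). Of 15 regulators 14 were tested and none was under 0.05. NRF1 (log2 fold change 0.03), GABPA (-0.0049), YY1 (0.03) and ESRRA (-0.02), whose words were searched above, and the coactivator PPARGC1A (0.01) and the mitochondrial transcription factor TFAM (0.06) all overlapped between the groups. The groups do not overlap for GABPB1, a partner of GABPA (log2 fold change 0.10, unadjusted p = 0.235), and POLRMT, the mitochondrial RNA polymerase (0.07, unadjusted p = 0.229), both higher in VEZF1-WT, which is 2 of 14 (14.3%) beside 7.36% of all genes tested.

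Some of these counts are not separate from those of other rows. Of the 96 genes 47 share exon positions with another gene of the table, and 8 have a partner whose total count is within 10% of their own, among them NDUFB8, NDUFA13 and NDUFV2. Pseudogene rows with the name of a chain gene held 0.684% as many counts as the 96 genes, and above 1% of the gene's own count for COX6A1, NDUFB4, NDUFV2, UQCRFS1 and SDHA. Among the 44 tested genes that share no exon position the median log2 fold change was 0.0003, and among the 45 that do it was 0.0043.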

How the data were processed

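RNA of the 6 libraries was extracted with RNeasy columns and made into libraries with a SMARTER mRNA-Seq kit. The authors deposited 1 table of raw read counts per gene, with positions and exon lengths, on GRCh38 per the labels. Aligner, counting program, annotation and strand setting are not given in the sources used here. Of 59613 lines, 5 with a broken entry for ANK2 were dropped. Between 65.7% and 67.5% of counts from 11 to 100 were even, and the largest library held 1.99 times the counts of the smallest.

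Counts were analysed with edgeR 4.0.16 in R 4.3.3 (filterByExpr with minimum count 10 and minimum total 15, TMM scaling, glmQLFit and glmQLFTest, two-sided, Benjamini-Hochberg adjustment over 19111 genes, group as the covariate), with DESeq2 1.42.0 and limma 3.58.1 as alternatives. CPM are TMM-scaled; the permutation test used log2 of CPM plus 0.1. Other alternatives were 3 scalings, no filter, halved counts, left-out libraries or genes, added pseudogene rows, other lengths and a shorter promoter window. Intervals come from the same fit and cover the spread between libraries; the floor of 3 counts covers counting error only.

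The genes, lists and words were chosen with earlier results of these data known. Named genes are, per complex, the 2 subunits with the highest TPM, the 2 genes with the smallest p and the one with the largest change, all of complex II, core subunits, ATP5IF1 and isoform pairs; further genes were named after their values were seen, and 1 gene is not reported singly here. Rows with a hyphen in the name were kept out of the 96 genes.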

Additional observations from a re-analysis of the deposited data

Results flagged for a closer look

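Rows outside the 96 genes that carry a chain gene's name also held counts, above the 0.104 CPM that 3 counts are worth in the smallest library. The read-through gene NDUFC2-KCTD14 had a mean of 48.3 CPM over the 6 libraries (43.3 to 50.3 CPM), and the read-through gene ATP5MF-PTCD1 a mean of 63.8 CPM (58.0 to 65.7 CPM). Both share exon positions with the chain gene in their name, so that the same reads may stand in both rows. NDUFB2-AS1, named as antisense to NDUFB2, had a mean of 15.9 CPM, NDUFA6-DT, named as divergent from NDUFA6, 0.836 CPM, and NDUFV2-AS1 0.503 CPM. Without a stated strand setting, reads of an antisense row and of its partner cannot be told apart. Log2 fold changes (VEZF1-WT over VEZF1-2A) of the read-through rows were 0.10 (unadjusted p = 0.128) and -0.05 (unadjusted p = 0.468) in edgeR's test.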

How the results depend on the processing

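No chain gene passed the adjusted threshold under any alternative run, and no gene past a threshold turned its direction. The number of chain genes with an unadjusted p under 0.05 was 1, beside 2.13% of all genes tested. In the DESeq2 test it was 0, beside 0.607%. With 1 library left out it was 0 to 2, beside 1.51% to 4.89% of all genes tested. It was 0 without VEZF1-WT 2, VEZF1-WT 3, VEZF1-2A 1 or VEZF1-2A 2, beside 1.78% to 2.41%. Without VEZF1-2A 3 it was 2 (COX7A2 and UQCR10), beside 4.89%. When the fit included a replicate block, the count was 3 (COX7A2, COX7B and NDUFAB1), among 825 of all genes tested (4.32%), of which 6 passed the adjusted threshold. Libraries with the same number correlated at 0.082, 0.151 and 0.382 in their deviations and the others at -0.294 to 0.181, VEZF1-WT 2 correlating best with VEZF1-2A 1. The labels give no shared batch or day for a number, and whether one links the libraries is not settled by these values. Of 39 named genes fitted, 18 kept their sign in all alternatives, and 21 changed it in at least 1 without passing the test. The median log2 fold change of the chain genes lay between -0.0080 and 0.0154, and the number of genes above 0 between 43 and 61. Both upper values are from the fit without a filter on low counts. That fit held 93 chain genes, and its median over all genes was 0.0163.

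Shares of the summed TPM depended on gene length, and those of complex I include NDUFS5, its highest gene, and the assembly factors. Complexes I, II, III, IV and V held 64.2%, 0.997%, 10.7%, 11.7% and 12.4% with the table's lengths, 44.3%, 3.49%, 14.9%, 17.3% and 20% without length (CPM), and 44.1%, 1.98%, 15.1%, 19.4% and 19.5% with median coding transcript lengths, an alternative chosen after seeing the data. In the last 150 bases of the promoter windows CCAAT was in 23.5% of the chain windows and 21.3% of all, against 35.7% and 34.6% in the whole window, and the G-rich word in 2.04% and 8.52%, against 4.08% and 14.6%. With 3 libraries a group, changes within the intervals given are not excluded, and the size of change that could be detected was not tested.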
